A study of Mus musculus with 4 samples.

Results

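The genes described here are the tachykinin, calcitonin gene-related peptide (CGRP) and gastrin-releasing peptide (GRP) systems of the mouse spinal cord after nerve injury. They were chosen by name as the peptide genes *Tac1*, *Tac2*, *Grp*, *Calca* and *Calcb* and the receptor genes *Tacr1*, *Tacr3*, *Grpr*, *Calcrl* and *Ramp1*, and every array probe carrying one of these names was read. This gave 13 probes of 10 genes among the 39429 probes of the array, which carry 30222 gene names. Male ICR mice, an outbred stock, 5 to 6 weeks old, received partial sciatic nerve ligation (PSL), and RNA was taken on day 7 from lumbar spinal slices (L4 to L5). The mice were either sham-operated (sham+PSL) or adrenalectomized and given saline to drink (ADX+PSL), and tissue was taken at ZT10, late in the light phase (lights on at ZT0 and off at ZT12), when corticosterone of sham+PSL mice is high, or at ZT22, late in the dark phase. All 4 groups carried the ligation, so no uninjured cord was compared. Each of the 4 conditions had 1 array, and the 4 arrays lay on 1 slide. The number of mice behind each RNA and the side of the cord are not given in the sources used here.

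Tachykinins, CGRP and GRP are neuropeptides that are cut from longer precursors, stored in dense-core vesicles and released onto G protein-coupled receptors. In the spinal cord, substance P and CGRP are best known as peptides of nociceptive afferent fibres that end in the dorsal horn, where they strengthen the response to painful input, while GRP and its receptor carry itch. The cell bodies of those afferents lie in the dorsal root ganglia outside the cord, so that transcripts measured in spinal slices come mainly from cells of the cord itself, among them dorsal horn interneurons and motor neurons.

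All 5 peptide genes and 4 of the 5 receptor genes were well above background on all 4 arrays, by the flag that the scanner software gives each spot. The exception was *Calcrl*, which was well above background on 3 arrays. Levels are the authors' quantile-normalized intensities in arbitrary units. Brightness differs between probes for reasons of sequence, so levels are compared here only within a probe. The levels of these 9 genes spanned a median of 1.26-fold between the highest and the lowest array, from 1.09-fold for *Tacr1* to 1.5-fold for *Calca*. Among all 25012 probes that passed the same flag on every array the median was 1.23-fold. The median size of the members' log2 ratios, over those well above background on both arrays, was 0.25 in time in each operation, and 0.15 at ZT10 and 0.29 at ZT22 between operations, where the median over all such probes was 0.15, 0.14, 0.14 and 0.16 in the same order. No condition had a replicate array, so no p-value was computed. The error given with a log2 ratio is the scanner software's spot error, which covers the spots alone and leaves out the differences between mice and between slices. It was 0.20 or 0.21 for every ratio of a named gene between levels well above background given below, except for *Calcrl*, *Calcr* and *Scn11a*.

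**Figure D1:**
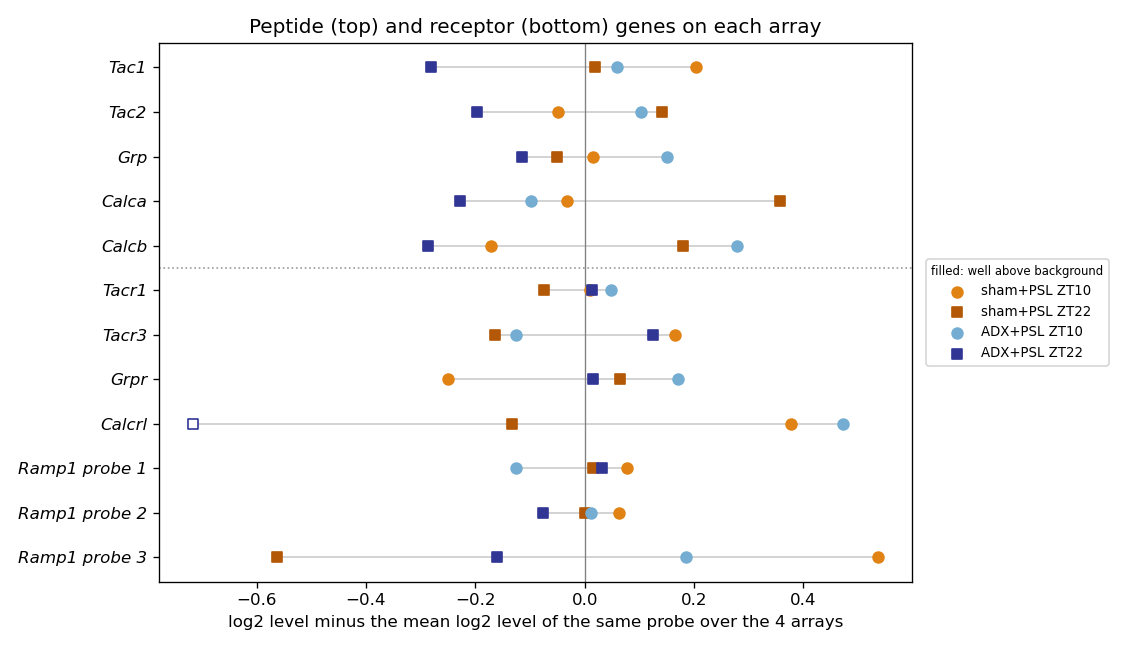
Levels of the 12 member probes that any array measured above background, drawn as log2 level minus the mean log2 level of the same probe over the 4 arrays, 1 symbol per array, with no error bars. Filled symbols are well above background and the open symbol is not. In all 5 peptide genes the lowest symbol is ADX+PSL at ZT22, and *Ramp1* probe 3 is spread more widely than probes 1 and 2.

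Where a gene has several probes, their sequences show which transcripts the values stand for. *Calca* yields calcitonin or CGRP by alternative splicing, and the array has 1 probe for each mRNA. The CGRP probe (A_52_P154101, transcript variant 2) lies at chr7:121775204-121775263 on the minus strand of mm9 and the calcitonin probe (A_55_P2139942, transcript variant 1) at chr7:121776948-121777007 on the same strand, upstream of it. The first 30 of the 60 bases of each are shown, since the values below differ between them.
Calca CGRP probe: tattgtgcatcgtgttgtatgtgactctgt
Calca calcitonin probe: aagaatggtatctgaaatccccagtgggtg

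*Ramp1* has 3 probes. Probe 1 (A_51_P348665) joins exons, since its 60 bases stretch over 26256 bases of the genome (chr1:93093453-93119708, mm9), and it reads the coding sequence. Probe 2 (A_55_P1982996) carries the name of transcript variant 3 and probe 3 (A_52_P172014) that of the same transcript as probe 1. Probe 1 is shown whole and the others by their first 30 bases, because their ratios do not run together.
Ramp1 probe 1: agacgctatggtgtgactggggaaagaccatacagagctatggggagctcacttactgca
Ramp1 probe 2: cttcttaggtgttccccctctttctatact
Ramp1 probe 3: tgggagtggatctccatccattcctcaaaa

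Before the members are compared, 3 features of the arrays have to be stated. Markers of the spinal cord itself (14 genes, among them *Snap25* of neurons, *Mbp* of myelin and *Hoxc10* and *Hoxd10* of lumbar segments) were well above background on all 4 arrays, and none passed the limits in any comparison. Markers of meningeal fibroblasts were lower on the ADX+PSL arrays (10 of 10 called at ZT10, median log2 ratio -2.17, and 8 of 10 at ZT22, median -2.12). Skeletal muscle genes were high on the sham+PSL ZT10 array (median log2 ratio 2.83 over ZT22, 5 of 7 measured genes called), and red blood cell genes were low on the sham+PSL ZT22 array (median log2 ratio of ZT10 over ZT22 3.05, 6 of 6 called). In bulk tissue, fewer cells of a type and less RNA per cell cannot be told apart.

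The first question was which of these genes differed between ZT10 and ZT22 in mice with and without adrenal glands. A gene was called by the limits of the study's methods, a Z-score of at least 2 and a ratio of at least 2, or a Z-score of at most -2 and a ratio of at most 0.5, read on its brightest probe. In sham+PSL mice 0 of 10 members were called, against 4.22% of all probes (1168 of 27671). In ADX+PSL mice 1 of 10 was called, *Calcrl*, which was higher at ZT10, against 3.72% of all probes in either direction and 2.06% called higher. A weaker reading of the same ratios counts those beyond 2 spot errors. This held for 0 of 10 members in sham+PSL (10.8% of probes well above background on both arrays) and for 1 of 9, *Calcb*, in ADX+PSL (8.35%). The study sought genes with a higher level at ZT10 in sham+PSL, a similar level at both times in ADX+PSL and a lower level in ADX+PSL than in sham+PSL, without stating limits for these 3 criteria. Here they were read as a call in sham+PSL, no call in ADX+PSL and a lower mean level in ADX+PSL. On its brightest probe no member met this reading, which 446 probes (1.55%) met, and none did with a ratio of 1.5 in place of the call. The dimmer *Ramp1* probe 3, which was not called, did meet the version with a ratio of 1.5. Its ZT10 level was 2.14-fold that of ZT22 in sham+PSL and 1.27-fold in ADX+PSL. Its mean level was 217 in ADX+PSL and 227 in sham+PSL.

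The second question was which genes differed between operations at the same time. Of the 10 members, 0 were called at ZT10 (4.52% of all probes) and 0 at ZT22 (3.65%). When only a ratio of 1.5 was asked for, *Calca* alone was counted at ZT22, as lower in ADX+PSL, against 10.2% of probes. Beyond 2 spot errors lay *Grpr* and *Calcb* at ZT10, both higher in ADX+PSL (11.1% of probes in either direction), and *Calca* and *Calcb* at ZT22, both lower in ADX+PSL (10.8%). Both ADX+PSL arrays lay beyond both sham+PSL arrays for 2 of 10 genes, above for *Tacr1* and below for *Calca*, against 35.3% of the 28845 probes flagged as such on 1 array or more. The 4 comparisons share arrays, each array entering 2 of them, and are not independent of each other.

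**Figure D2:**
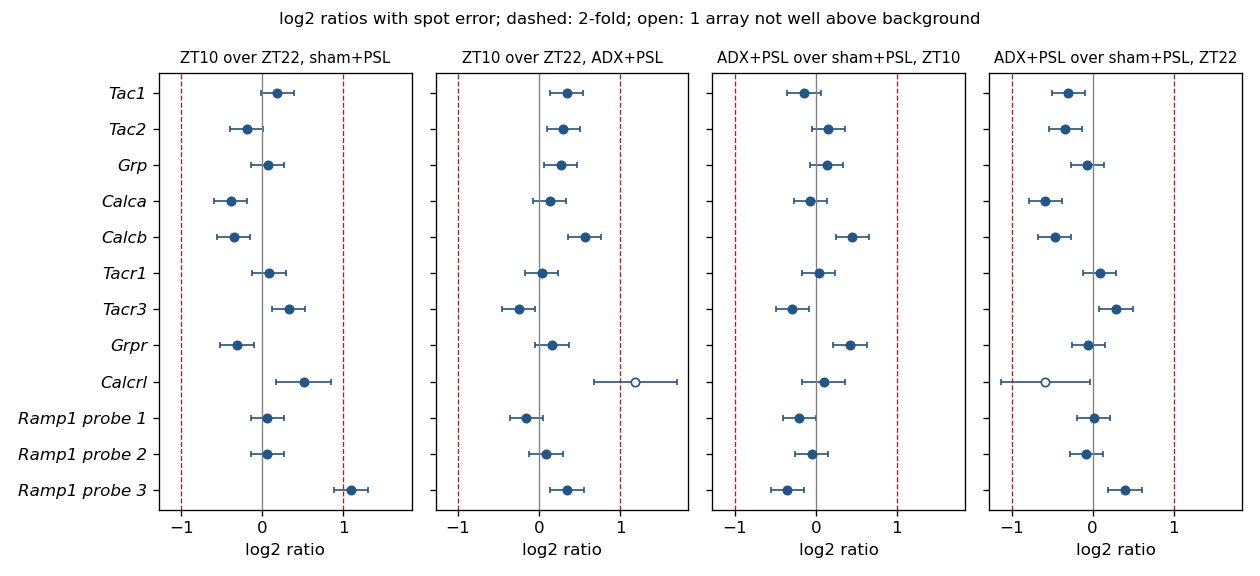
log2 ratios of the same 12 probes in the 4 comparisons, with bars of 1 spot error to each side. Dashed lines mark a 2-fold difference, and open symbols mark ratios in which 1 level was not well above background. Apart from *Calcrl* in ADX+PSL and *Ramp1* probe 3 in sham+PSL, every ratio lies inside the 2-fold lines.

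The 5 peptide genes had their lowest level on the same array, ADX+PSL at ZT22. That array also had the smallest share of probes well above background, 65.1% against 66.9% to 70.1% on the others. It had the most outlier spots, 254 against 156 to 182. Their part in the peptide genes' levels was not tested. Among those 28845 probes, 26.2% were lowest on that array. In consequence the log2 ratio of ZT10 over ZT22 in ADX+PSL was above 0 for 5 of 5 peptide genes (median 0.30), and that of ADX+PSL over sham+PSL at ZT22 was below 0 for 5 of 5 (median -0.34), or for 4 of 5, without *Grp*, when the arrays were not normalized to each other. Since both ratios contain that array, they are 1 observation and not 2. Where it did not enter, the peptide genes had no common direction. In sham+PSL 2 were higher at ZT10 and 3 lower (median -0.19), and at ZT10 3 were higher in ADX+PSL and 2 lower (median 0.14). The medians of all probes lay between 0.003 and 0.015 in the 4 comparisons. The receptor genes did not share the peptides' lowest array, which was their lowest for *Calcrl* alone, and their medians lay between 0.02 and 0.08, each of them turning to the other sign under some other scaling or background correction.

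*Tac1* encodes the precursor of substance P and neurokinin A. Its probe (A_55_P1954693, chr6:7512893-7512952, plus strand, mm9) read 7123 in sham+PSL mice at ZT10 and 6261 at ZT22, and 6439.9 in ADX+PSL mice at ZT10 and 5087 at ZT22. The level was higher at ZT10 under both operations, but by less than the 2 spot errors used above, with a log2 ratio of 0.19 after sham operation and 0.34 after adrenalectomy. The ratio of ADX+PSL to sham+PSL was -0.15 at ZT10 and -0.30 at ZT22.

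Because time of day and adrenal hormone were the variables of the study, the promoters of the members were searched for 4 short motifs on both strands, in windows of 250 bases before to 50 after the start of each gene (RefSeq, GRCm38.p6). These were the E-box CACGTG read by clock proteins, the D-box TTATGNAA, the cAMP response element TGACGTCA and the palindromic glucocorticoid response element (AGAACA and TGTTCT parted by 3 bases). The table holds 8 of the 10 members. *Grp* and *Calcb* are not among them. Of the 8 windows only that of *Tac1* held any of the 4 motifs, an E-box from 61 to 56 bases before the start, as 7.15% of 32851 windows do. The D-box is in 3.38% of all windows, the cAMP response element in 1.79% and the glucocorticoid response element in 0.00913%. With so few windows holding the exact glucocorticoid element, its absence from these 8 could hardly have come out otherwise and says nothing about them. The windows also do not reach as far upstream as the element that the paper lists for *Sgk-1*. The 100 bases before the start of *Tac1* (chr6:7554961-7555060, plus strand, GRCm38.p6) are shown with the E-box in capitals. The match is a description of the letters and not of binding.
Tac1 upstream of the start: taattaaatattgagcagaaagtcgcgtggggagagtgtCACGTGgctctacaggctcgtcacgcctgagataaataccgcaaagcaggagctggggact

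*Tac2*, the neurokinin B precursor, was read by A_55_P2147566 (chr10:127168764-127168823, mm9) at 8542 in sham+PSL mice at ZT10 and 9743 at ZT22, and 9489.6 in ADX+PSL mice at ZT10 and 7711 at ZT22. Its order in time was opposite in the 2 operations, with a log2 ratio of ZT10 over ZT22 of -0.19 with sham operation and 0.30 after adrenalectomy, neither beyond 2 spot errors. Between operations the log2 ratio was 0.15 at ZT10 and -0.34 at ZT22.

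*Grp*, the precursor of gastrin-releasing peptide made by dorsal horn interneurons, was the steadiest of the 5 peptide genes, with 1.20-fold between its highest and lowest array. Its probe (A_51_P356055) read 1848 and 1765 in sham+PSL mice (ZT10 and ZT22 in turn), and 2030.4 and 1688 in ADX+PSL mice. No ratio exceeded 0.27 in size, the log2 ratio of ZT10 over ZT22 in ADX+PSL.

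*Calca* showed the widest spread among the genes measured on all 4 arrays. Its CGRP probe read 17119 in sham+PSL mice at ZT10 and 22426 at ZT22, and 16355 in ADX+PSL mice at ZT10 and 14945 at ZT22. The sham+PSL ZT22 array stood above the other 3, and both ADX+PSL levels lay below both sham+PSL levels, as for 16.3% of probes. The nearest of these levels, 16355 and 17119, differ by far less than a spot error. The mean of the ADX+PSL arrays was 0.791 of that of the sham+PSL arrays. At ZT22 the ADX+PSL level was 0.666 of the sham+PSL level (log2 ratio -0.59 ± 0.20, spot error), and at ZT10 it was 0.955 (log2 ratio -0.07). In sham+PSL the ZT10 level was 0.763 of the ZT22 level (log2 ratio -0.39), and in ADX+PSL it was 1.09 of it (log2 ratio 0.13). The calcitonin probe read 3.80, 3.77, 6.06 and 4.25, on no array well above background, so that the measured *Calca* signal was that of the CGRP transcript.

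Motor neurons also contain *Calca* transcripts, and most of their markers lay in the same direction. Of 7 motor neuron markers, 4 (*Chat*, *Slc18a3*, *Prph* and *Ret*) had both ADX+PSL levels below both sham+PSL levels, against 16.3% of probes. For *Chat* the nearest of these levels, 1165 and 1184, differ by far less than a spot error. Their ratios of ADX+PSL to sham+PSL were below 0 on the log2 scale for 5 of 7 at ZT10 (median -0.12) and 7 of 7 at ZT22 (median -0.25, and 6 of 7 without normalization between arrays), with none called. *Prph*, encoding peripherin of motor and sensory neurons, read 9259 and 9886 in sham+PSL at ZT10 and ZT22, and 6393 and 7327 in ADX+PSL. The summed level of the 7 markers was 24230 and 23882 in sham+PSL and 19268 and 18943 in ADX+PSL. This sum follows the bright probes of *Prph* and of *Slc18a3* (8844 and 7795 in sham+PSL, 7280 and 6567 in ADX+PSL). Of the 7, only *Prph* differed between operations by more than 2 spot errors. The part of motor neuron content in the *Calca* levels was not tested. Of 10 markers of primary sensory neurons, 5 passed the background flag on all 4 arrays, among them *Pou4f1* (794 to 968), *P2rx3* (169 to 192) and *Prph*. The sodium channel gene *Scn11a* was also among these, at 51.2 and 39.3 in sham+PSL at ZT10 and ZT22, and 54.6 and 53.0 in ADX+PSL. Unlike *Prph* it was higher in ADX+PSL, with log2 ratios of 0.09 ± 0.24 at ZT10 and 0.43 ± 0.28 at ZT22 (spot error). Another 4 of the 10 passed the flag on no array, among them the nociceptor sodium channel gene *Scn10a* at 3.81 to 3.95 and *Avil* at 3.74 to 4.09. *Trpv1*, encoding the heat and capsaicin channel, was well above background on the sham+PSL ZT10 array alone (27.0 against 4.92 in ADX+PSL) and was the only one called, as lower in ADX+PSL at ZT10. The medians of the measured sensory markers were 0.15 and -0.04 in time and -0.05 and -0.04 between operations.

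*Calcb*, which encodes the other CGRP peptide, had the largest difference in time course between the operations among members measured on all 4 arrays. Its probe (A_51_P406157, chr7:121866534-121866593, plus strand, mm9) read 733 in sham+PSL mice at ZT10 and 935 at ZT22, and 1002 in ADX+PSL mice at ZT10 and 676 at ZT22. It was thus lower at ZT10 in sham+PSL (0.784 of the ZT22 level, log2 ratio -0.35) and higher at ZT10 in ADX+PSL (1.48-fold, log2 ratio 0.57), and the first of these was within 2 spot errors. The sham+PSL minus ADX+PSL difference of the time ratios was -0.92 ± 0.29 (log2, spot error). Between operations the level was 1.37-fold higher in ADX+PSL at ZT10 (log2 ratio 0.45) and 0.723 of sham+PSL at ZT22 (log2 ratio -0.47), each beyond 2 spot errors, so that the order of the operations reversed between the times. With 1 array per cell of this design, the difference could not be tested.

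The other peptide genes of the dorsal horn were set beside the members. Of the 7 peptide genes in the dorsal horn list, 4 (*Penk*, *Pdyn*, *Npy* and *Cck*) were lowest on the ADX+PSL ZT22 array, while *Sst*, *Nts* and *Gal* were lowest on another. *Pdyn*, the dynorphin precursor, had the pattern of *Calcb* on the brightest of its 2 probes, at 2872 and 3428 in sham+PSL at ZT10 and ZT22 and 3875 and 2503 in ADX+PSL. *Nmb*, the neuromedin B precursor of the bombesin family, had it too, at 1125 and 1308 in sham+PSL and 1478 and 1038 in ADX+PSL. Its second probe kept the same order (1042, 1203, 1369 and 966). The 2 *Nmb* probes overlap (chr7:88047120-88047179 and chr7:88047128-88047187, mm9), so the second is no separate support. *Gal*, the galanin precursor, differed by time in the same direction in both operations, at 7316 and 13046 in sham+PSL and 7707 and 12442 in ADX+PSL. *Pdyn* and *Gal* were picked from the list after their values were seen. Of the dorsal horn genes, 13 had a probe. The median log2 ratio of ADX+PSL to sham+PSL was 0.07 at ZT10 (13 measured genes) and 0.0009 at ZT22 (12 measured). The medians in time were 0.07 in sham+PSL (12 measured) and 0.03 in ADX+PSL (13 measured), and none was called.

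*Tacr1*, the substance P receptor NK1, was the steadiest member. Its probe (A_52_P149545, chr6:82509613-82509672, mm9) read 474 and 447 in sham+PSL mice (ZT10 and ZT22 in turn), and 487 and 475 in ADX+PSL mice. Both ADX+PSL levels were above both sham+PSL levels, as for 19.0% of probes, but the nearest of them, 475 and 474, differ by far less than a spot error. Its log2 ratios lay between 0.03 and 0.09 in the 4 comparisons.

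*Tacr3*, the neurokinin B receptor NK3, was read by A_52_P676947 (chr3:134596904-134596963, mm9) at 459 in sham+PSL mice at ZT10 and 365 at ZT22, and 376 in ADX+PSL mice at ZT10 and 447 at ZT22. It was higher at ZT10 in sham+PSL (log2 ratio 0.33) and lower at ZT10 in ADX+PSL (log2 ratio -0.25), in each case by under 2 spot errors. Its directions were opposite to those of *Tac2*, its peptide, in all 4 comparisons, which share arrays. The largest of these 8 ratios was 0.34 in size, and each was within 2 spot errors.

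*Grpr*, the GRP receptor of dorsal horn neurons, read 158 in sham+PSL mice at ZT10 and 196 at ZT22, and 211 in ADX+PSL mice at ZT10 and 189 at ZT22 (A_52_P646957, chrX:159952638-159952697, minus strand, mm9). The sham+PSL ZT10 array was the low one. At ZT10 the ADX+PSL level was 1.34-fold that of sham+PSL (log2 ratio 0.42 ± 0.21, spot error), and at ZT22 the log2 ratio was -0.05. In time the log2 ratio was -0.31 with adrenal glands and 0.16 without them.

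*Calcrl* encodes the G protein-coupled subunit that forms the CGRP receptor with *Ramp1* and adrenomedullin receptors with *Ramp2* and *Ramp3*. Its probe (A_52_P58949, chr2:84173073-84173132, minus strand, mm9) was dim, at 32.8 in sham+PSL mice at ZT10 and 23.0 at ZT22, and 35.1 in ADX+PSL mice at ZT10 and 15.4 at ZT22. Both ZT10 levels were above both ZT22 levels, an order whose share over all probes was not counted. The nearest of these levels, 32.8 and 23.0, differed by under 2 spot errors. The ADX+PSL level at ZT22 was not well above background, where the lowest level so flagged on that array was 22.2. The ADX+PSL level was therefore at least 1.58-fold higher at ZT10. The measured log2 ratio was 1.19 ± 0.51 (spot error, Z-score 2.12), and it was called. When both arrays had to be well above background, when the Z-score was taken within 20 bins of intensity, or under other background corrections, the call was lost, and with normexp correction the log2 ratio was 0.40. In sham+PSL the log2 ratio was 0.51 ± 0.34, and at ZT10 the operations differed by a log2 ratio of 0.10 ± 0.27. Endothelial cells are a main site of *Calcrl*, and 8 of 8 endothelial markers were well above background on all 4 arrays. Their summed level was 10644 and 11951 in sham+PSL mice (ZT10 and ZT22 in turn), and 12036 and 12789 in ADX+PSL mice. Much of the spread of this sum came from *Cldn5*, and without it the other 7 gave 8147 and 8748, then 8954 and 8173. The sum of the 7 rests mainly on *Kdr* (3332 and 3857, then 3928 and 3585) and *Flt1* (3752 and 3800, then 4066 and 3517). The median log2 ratio of the 8 markers, ZT10 over ZT22 in ADX+PSL, was -0.12, with 4 of 8 above 0.

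*Ramp1*, the accessory protein that makes *Calcrl* a CGRP receptor, was read by 3 probes that did not run together in sham+PSL. Probe 1, which joins exons, read 6158 and 5899 in sham+PSL at ZT10 and ZT22, and 5351 and 5964 in ADX+PSL. Probe 2 read 257 and 246 in sham+PSL, and 248 and 234 in ADX+PSL. Probe 3 read 309 and 144 in sham+PSL, and 243 and 191 in ADX+PSL.

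In sham+PSL the log2 ratio of ZT10 over ZT22 was 0.06 on *Ramp1* probes 1 and 2 and 1.1 on probe 3. The level on probe 3 was thus 2.14-fold higher at ZT10, past the ratio limit, but its Z-score of 1.84 did not reach 2. In ADX+PSL probes 1, 2 and 3 gave -0.16, 0.09 and 0.35. Between operations they gave -0.20, -0.05 and -0.35 at ZT10 and 0.02, -0.08 and 0.40 at ZT22. A gene-level value therefore depended on the probe. The mean over the 3 probes gave 0.41 in sham+PSL and 0.09 in ADX+PSL for ZT10 over ZT22, against 0.06 and -0.16 on the brightest probe.

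Of the other genes of these families, 12 had a probe and 3 (*Tac4*, *Adm2* and *Iapp*) were well above background on no array. *Brs3*, encoding an orphan receptor of the bombesin family, read 78.8 in sham+PSL at ZT10 and 3.49, 4.35 and 3.57 on the other 3 arrays, where it was not well above background. It was the only one of these genes called, as higher at ZT10 (sham+PSL) and as lower after adrenalectomy at the same time, on a single array's signal. *Adm*, the adrenomedullin precursor, read 271 and 200.1 in sham+PSL at ZT10 and ZT22, and 155 and 218 in ADX+PSL. *Ramp2* was higher at ZT10 in both operations, at 4152 and 3391 in sham+PSL and 4075 and 3367 in ADX+PSL. The calcitonin receptor gene *Calcr* had both ADX+PSL levels below both sham+PSL levels, with a log2 ratio of -0.63 ± 0.30 (spot error) at ZT10 and -0.05 ± 0.40 at ZT22. The list's median log2 ratios were 0.12 and 0.01 in time and -0.08 and -0.05 between operations, in the order sham+PSL, ADX+PSL, ZT10 and ZT22.

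The 2 probes of *Tacr2*, encoding the neurokinin A receptor NK2, disagreed in every sample. They lie 162 bases apart, and the first read 36521, 46679.8, 43964 and 39823 while the second read 3.94, 23.4, 4.64 and 4.14 on sham+PSL at ZT10 and ZT22 and ADX+PSL at ZT10 and ZT22, well above background on sham+PSL at ZT22 alone. Which of them stands for *Tacr2* was not tested.

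The enzymes and granule proteins that make neuropeptides were measured for all 9 genes listed, and all 9 had a higher level at ZT10 in sham+PSL mice (median log2 ratio 0.22, range 0.10 to 0.90), while 7 of 9 did in ADX+PSL mice (median 0.15, and 5 of 9 without normalization between arrays). None was called, and across all probes the medians were 0.015 and 0.012. *Pam*, which amidates the ends of substance P, CGRP and GRP, had the largest ratio in both operations, at 2734 and 1469 in sham+PSL at ZT10 and ZT22 (log2 ratio 0.90) and 2627 and 1431 in ADX+PSL (log2 ratio 0.88). Its time ratio thus stayed under the 2-fold limit in each. Between operations the medians of this list were -0.04 at ZT10 and 0.01 at ZT22. Of the 9 genes, 4 (*Cpe*, *Pam*, *Scg2* and *Chgb*) were lowest on the ADX+PSL ZT22 array, as 26.2% of probes were, and the other 5 on the sham+PSL ZT22 array (*Scg2* 20238, 17981, 20767 and 14854, and *Chgb* 32522, 30446, 34212 and 26542).

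Of 6 peptide-degrading enzymes, *Dpp4* and *Anpep* were called. *Dpp4*, which clips substance P, read 11.0 (not well above background) and 110.2 in sham+PSL at ZT10 and ZT22, and 15.5 and 33.0 in ADX+PSL, with calls as lower at ZT10 in sham+PSL and lower in ADX+PSL at ZT22. *Anpep*, an aminopeptidase also found in meningeal and vascular cells, read 399 and 350.0 in sham+PSL and 163 and 199 in ADX+PSL, and was called lower in ADX+PSL than in sham+PSL at ZT10, with no call in time. *Mme*, encoding neprilysin, the main enzyme that breaks down substance P, read 106 and 81.0 in sham+PSL and 112 and 114 in ADX+PSL and was not called, and its dimmer probe put the operations in an overlapping order (57.3 and 45.2, then 49.7 and 64.6). *Ece1*, also on this list, read 219 and 109 in sham+PSL and 117 and 106 in ADX+PSL. Its ZT10 level was 2.01-fold that of ZT22 in sham+PSL, but its Z-score of 1.69 did not reach 2. Between operations its log2 ratio was -0.90 at ZT10 and -0.04 at ZT22. The list's medians were 0.28 and 0.06 in time and 0.04 and 0.01 between operations. Of 12 genes of Gq and Gs signalling downstream of the receptors, 0 were called in any of the 4 comparisons, and their medians lay between -0.05 and -0.03.

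**Figure D3:**
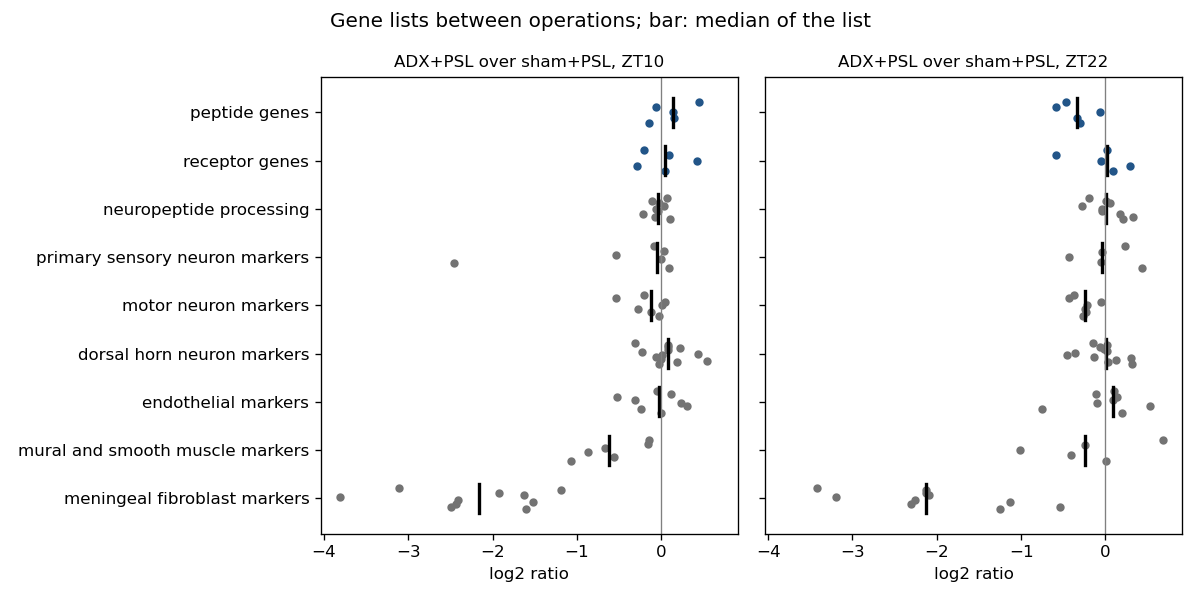
log2 ratios of ADX+PSL over sham+PSL at ZT10 (left) and ZT22 (right) for the genes of 9 lists, 1 point per gene well above background on 1 or both of the arrays compared, with a bar at the median of the list. The peptide genes are all below 0 at ZT22, the motor neuron markers likewise, and the meningeal fibroblast markers are below 0 at both times.

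The meningeal and the mural and smooth muscle markers were set beside the vessel-associated members. *Calcrl* and *Ramp1* are expressed in vascular smooth muscle, whose markers had median log2 ratios of ADX+PSL to sham+PSL of -0.62 at ZT10 and -0.24 at ZT22 (range of the list -1.08 to 0.68 over both times) and 0.31 and 0.05 in time in sham+PSL and ADX+PSL, with none called. The operation ratios of *Calcrl* at ZT10 and of *Ramp1* on its brightest probe at both times were within 1 spot error of 0, whereas that of *Calcrl* at ZT22 (log2 ratio -0.58 ± 0.55, at least 1.04-fold lower in ADX+PSL) and those of *Ramp1* probe 3 at both times were beyond it. The meningeal markers differed by over 2 log2 units at the median where no member differed by 0.6. The part of meningeal, mural or smooth muscle content in the members' levels was not tested.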

How the data were processed

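Labelled cRNA of 4 spinal RNAs was hybridized to 1-colour Agilent 44K arrays of 60-base probes, and there was 1 array per condition. The deposited files hold, per the file headers, the scanner software's processed, mean and background intensities of each of 43020 non-control spots with an error and flags. The labels name version 9.5.1.1 of Agilent Feature Extraction and the headers 10.7.1.1. The authors also deposited a table of linear-scale intensities. Its 4 columns hold the same sorted values (to within 0.000515 on the log2 scale), so they were quantile-normalized, and each column follows its own array's scanner signal (Pearson's r from 0.9994 to 0.9999, across probes). No centring was found, and the median of each column was 105. Levels are those of this table, taken as log2 without a pseudocount. Between 65.1% and 70.1% of probes were well above background, 15.3% to 21.8% of spots held a surrogate value set for spots at background, and 0 spots were saturated. The number of arrays limits the precision.

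Z-scores, which the methods leave undefined, were computed by centring the log2 ratios of all 39429 probes on their mean and scaling them by their SD. A call also required the brighter array to be well above background. A level not well above background gives a bound against the higher of the lowest level so flagged on that array and the probe's own level. A gene was read on its brightest probe. Named genes are all members with all probes, some genes of the other lists that were called, are bright or differ most between operations, and those said to be chosen later. The members, lists, limits and alternatives were chosen with earlier results of these data known. The accessions of 13 of 13 member probes matched the member's symbol in RefSeq (GRCm38.p6). Probe coordinates are those of mm9 in the file headers. Alternatives used limma 3.58.1 in R 4.3.3, and the rest Python 3.11.15, numpy 2.4.6, pandas 2.3.3 and matplotlib 3.10.9.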

Additional observations from a re-analysis of the deposited data

How the results depend on the processing

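No paired analysis was possible because each condition had 1 array and the groups share a single replicate number, and for the same reason no array could be left out. The count of members called in ADX+PSL between ZT10 and ZT22 fell from 1 to 0 with normexp background correction (offset 50), with the mean signal without background correction, with well above background required on both arrays, and with Z-scores computed in 20 bins of intensity. The count at ZT22 between operations went from 0 to 1 with a ratio of 1.5 without a Z-score. The other counts of members called or meeting the 3 criteria stayed within 1.5 times their value under the alternatives run. The count of genes whose operations did not overlap was 2 or 3, with *Calca* in each of the 7 settings whose genes were listed, *Grpr* in place of *Tacr1* without normalization between arrays, and *Ramp1* added under a shift to the 75th percentile. Of 5 peptide genes, 4 or 5 were lowest on the ADX+PSL ZT22 array under 6 alternatives chosen after seeing the data, 4 without normalization, where *Grp* was not. Without normalization the median of all probes moved to -0.10 in ADX+PSL over time and to 0.12 at ZT22 between operations, and the peptide genes' medians were 0.19 and -0.23 there. The receptor genes' median in ADX+PSL over time was 0.03, and -0.09 without normalization, -0.08 with normexp and -0.10 with the mean signal. Of 320 alternative values of the members' log2 ratios, 316 moved by less than the spot error, and 32 of the 40 ratios kept their sign under every alternative run. Signal over background limits *Calcrl* in particular.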
